A study of Mus musculus with 7 samples.

Results

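The 9 genes described here encode brain proteoglycans of the lectican and syndecan families and proteins that work with them. They were taken by gene name from a table of 24978 genes measured in HopX-positive cells of the C57BL/6 mouse brain. They are the lecticans Ncan, Bcan and Vcan, the hyaluronan link gene Hapln1, the membrane chondroitin sulfate proteoglycan gene Cspg5, the tenascin gene Tnr, and the syndecans Sdc2, Sdc3 and Sdc4. Each name matched 1 row of the table. The cells had been isolated by fluorescence-activated sorting at embryonic day 15 (E15, n = 2 libraries), postnatal day 3 (P3, n = 2, replicates 1 and 3) and in the adult (n = 3). Per the labels, all were neural progenitor cells of the same strain, with no treatment or genetic change named. The labels give neither the brain region nor how HopX was detected, so a difference in region or gate cannot be told apart from stage. Since separate animals are not named for the replicates, a p-value here covers the spread of these particular libraries, and that spread may be technical.

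Proteoglycans are core proteins that carry long sulfated sugar chains. In the brain, lecticans bind the polysaccharide hyaluronan at one end and tenascins at the other, and link proteins lock the contact with hyaluronan, which together form a hydrated mesh around cells. Neurocan (Ncan) and versican (Vcan) are known from the juvenile brain matrix, whereas brevican (Bcan), Hapln1 and tenascin-R (Tnr) are known from the mature matrix and from perineuronal nets. Syndecans cross the cell membrane, carry mainly heparan sulfate chains and act as co-receptors for growth factors.

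Levels are given in TPM, a share of the library's transcripts scaled to a fixed total, which takes gene length into account, so levels of different genes can be set side by side. Every library summed to between 998449 and 999193 TPM. TPM holds no number of reads, so depth is unknown and counting error could not be estimated. Changes are differences of log2(TPM + 1), which understate the change of genes with low levels. They were tested in 1 fit over the 15931 genes that reached 1 TPM in 2 or more libraries (limma, two-sided, Benjamini-Hochberg adjusted p under 0.05). Of the 9 genes, 8 passed this filter, and Tnr did not. The median change over all tested genes was -0.15 for P3 against E15, -0.13 for the adult against P3 and -0.30 for the adult against E15. With median-of-ratios scaling it was -0.03, -0.01 and -0.06. The share of called genes that were higher was then 89.4%, 49.3% and 52.5%, against 83.7%, 37.9% and 38.5% as deposited.

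Markers of cell types moved with stage, and their part in the results below was not tested. Summed radial glia and intermediate progenitor markers (10 genes) measured 5408 and 6290 TPM (E15), 14770 and 22540 TPM (P3) and 2286 to 2732 TPM (adult). The P3 maximum of this sum was that of Fabp7, which measured 4829 and 4020 TPM (E15), 21680 and 13690 TPM (P3) and 1829, 2310 and 1874 TPM (adult). Of the other 9 genes, Emx1, Eomes, Hes1, Hes5, Nes, Neurog2, Pax6 and Vim were lower in both P3 libraries than in both E15 libraries, and the median change of the 10 from E15 to P3 was -0.83, with 1 that rose and 2 that fell. The summed level of 13 astrocyte markers was 797 and 989 TPM (E15), 4405 and 6931 TPM (P3) and 17850 to 20120 TPM (adult). That of 12 neuron markers was 1038 and 1236 TPM at E15, 94.1 TPM in P3 replicate 1, 579.5 TPM in P3 replicate 3 and 76.4 to 224 TPM in the adult. Mature oligodendrocyte markers (12 genes) reached 736 and 512 TPM in Adult replicates 1 and 3, against 87.8 TPM in Adult replicate 2. Ependymal markers (8 genes) were highest at P3, with 444 and 310.0 TPM against 17.1 to 36.8 TPM in the other libraries. The sum of mural and fibroblast markers (10 genes) also peaked there, with 120 and 98.5 TPM against 19.1 to 29.7 TPM. Most of it was Rgs5, at 86.1 and 51.6 TPM in the P3 libraries. Higd1b, Vtn, Kcnj8 and Col1a2 were also highest in both P3 libraries. Pdgfrb and Col1a1 were instead highest in the adult libraries, and Cspg4, Dcn and Lum had neither order. Microglia markers (10 genes) summed to 2.08 and 3.51 TPM (E15), 63.2 and 87.1 TPM (P3) and 328 to 444 TPM (adult). Oligodendrocyte progenitor markers (10 genes) summed to 5.91 and 6.09 TPM (E15), 29.7 and 44.8 TPM (P3) and 19.0 to 20.9 TPM (adult), most of it Olig1 and Olig2 at P3 and in the adult. Of their defining genes, Pdgfra stayed between 0 and 0.53 TPM and Sox10 between 0 and 0.88 TPM. Endothelial markers (8 genes) summed to 92.3 to 190 TPM with no order by stage, most of it Pecam1 (87.7 to 186 TPM). Cldn5 stayed between 0 and 0.36 TPM and Cdh5 between 0 and 0.91 TPM, while Slco1a4 reached 12.4 TPM in Adult replicate 2. E15 replicate 1 stood apart in red blood cell markers (5 of 7 genes in the table), with 5125 TPM against at most 59.8 TPM elsewhere.

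The sequences just before the start of 5 genes are shown because these genes followed the 3 courses described below. Ncan peaked at P3, Vcan fell after P3, and Bcan, Hapln1 and Sdc4 rose at each step. RefSeq promoter windows on GRCm38.p6 were found for 7 of the 9 genes, and the 250 bases before the listed start are printed 5′ to 3′ (the expression values were made on mm9, and no coordinates were carried over). Capitals mark the letters of 3 motifs, searched on both strands. They are the GC box, written GGGCGG, the motif CCAAT, and the core of the TATA box, written TATAA. The windows were chr8:70120845-70121094 on the minus strand for Ncan, chr13:89742513-89742762 on the minus strand for Vcan, chr3:88000357-88000606 on the minus strand for Bcan, chr13:89540386-89540635 on the plus strand for Hapln1 and chr2:164443189-164443438 on the minus strand for Sdc4.
Ncan: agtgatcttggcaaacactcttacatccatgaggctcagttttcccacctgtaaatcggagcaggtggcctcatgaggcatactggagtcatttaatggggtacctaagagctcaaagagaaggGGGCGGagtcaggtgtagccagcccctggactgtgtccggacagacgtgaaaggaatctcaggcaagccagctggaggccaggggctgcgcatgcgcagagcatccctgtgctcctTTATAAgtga
Vcan: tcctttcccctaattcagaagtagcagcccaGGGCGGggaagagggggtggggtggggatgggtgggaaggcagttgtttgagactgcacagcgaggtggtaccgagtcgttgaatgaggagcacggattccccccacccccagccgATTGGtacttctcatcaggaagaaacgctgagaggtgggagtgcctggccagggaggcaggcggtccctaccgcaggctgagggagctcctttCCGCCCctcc
Bcan: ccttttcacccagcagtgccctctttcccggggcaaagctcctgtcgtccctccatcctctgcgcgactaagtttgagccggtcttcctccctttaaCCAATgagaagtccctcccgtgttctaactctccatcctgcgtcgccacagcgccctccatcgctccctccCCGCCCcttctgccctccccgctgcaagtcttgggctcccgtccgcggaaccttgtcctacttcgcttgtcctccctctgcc
Hapln1: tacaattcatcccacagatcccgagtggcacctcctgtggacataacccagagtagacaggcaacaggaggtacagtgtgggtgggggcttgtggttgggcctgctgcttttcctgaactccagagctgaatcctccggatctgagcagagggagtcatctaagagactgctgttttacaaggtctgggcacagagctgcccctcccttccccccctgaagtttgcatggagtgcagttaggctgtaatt
Sdc4: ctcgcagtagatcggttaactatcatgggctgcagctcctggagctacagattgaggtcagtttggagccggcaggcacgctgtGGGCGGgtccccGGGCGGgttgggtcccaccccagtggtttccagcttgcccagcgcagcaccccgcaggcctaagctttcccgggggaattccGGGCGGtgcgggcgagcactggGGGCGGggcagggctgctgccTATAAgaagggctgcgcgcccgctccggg
Among 32851 windows of 250 bases in the same table, 32.7% held a GC box, 33.8% a CCAAT box and 22.8% a TATA box core. The Sdc4 window held 4 GC boxes and a TATA box core that began 29 bases before the start. The Ncan window held 1 GC box and a TATA box core that matched on both strands in overlapping positions, 10 and 9 bases before the start. The Bcan window held 1 GC box and 1 CCAAT box, and the Vcan window held 2 GC boxes and 1 CCAAT box. None of the 3 motifs was in the Hapln1 window. The number of CpG dinucleotides was 2 for Hapln1, 6 for Ncan, 10 for Vcan, 16 for Bcan and 19 for Sdc4, against a median of 6 over all windows. Thus Bcan, Hapln1 and Sdc4, which all rose at each step, had windows of different CpG content and motif make-up. These matches are a description of the letters in the windows.

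The lecticans took 3 different courses. Ncan measured 59.2 and 57.6 TPM (E15), 406 and 373 TPM (P3) and 44.6, 33.0 and 33.6 TPM (adult). Both P3 libraries stood far above all the others, and the adult libraries lay below those of E15 without overlap. Ncan rose by 2.71 on the log2 scale from E15 to P3 (SE 0.20, limma, adjusted p = 0.000317) and fell by 3.37 after P3 (SE 0.19, adjusted p = 7.73e-05). Its mean was 6.66 times higher at P3 than at E15 and 10.5 times higher at P3 than in the adult. Both calls held under every alternative tried, with changes from P3 to the adult between -3.22 and -3.52. The Fabp7 level and the oligodendrocyte progenitor, ependymal and mural marker sums given above were also highest at P3, and their part in the Ncan peak was not tested.

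The lower Ncan level of the adult compared with E15 was less secure. The log2 change was -0.66 (SE 0.19, limma, adjusted p = 0.0233). It missed the threshold under median-of-ratios scaling, where it was -0.36 (limma, adjusted p = 0.141), and with quantile normalization, where it was -0.50 (adjusted p = 0.0529). It also missed it without E15 replicate 1 (adjusted p = 0.120), E15 replicate 2 (0.104), Adult replicate 2 (0.0542) or Adult replicate 3 (0.0512), without the variance trend (0.0641) and with the replicate block (0.0577), all in limma.

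Bcan encodes the lectican with the shortest core protein of the family. It measured 25.4 and 23.2 TPM (E15), 79.4 and 60.6 TPM (P3) and 251, 244 and 240 TPM (adult). The stages did not overlap, and the adult libraries were closely grouped. Bcan rose by 1.48 from E15 to P3 (SE 0.19, limma, adjusted p = 0.00338) and by a further 1.80 after P3 (SE 0.17, adjusted p = 0.000547). Over the whole span its mean rose 10.1-fold, a log2 change of 3.28 (SE 0.17, adjusted p = 8.66e-06), and these calls held under every alternative tried.

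Vcan, whose splice forms carry chondroitin sulfate chains in different number, did not share the rise at P3. The E15 libraries measured 47.4 and 49.7 TPM and the P3 libraries 58.9 and 48.9 TPM, with overlap. The log2 change from E15 to P3 was 0.14, with a 95% confidence interval from -1.29 to 1.58 (limma, adjusted p = 0.917). In this fit that leaves room for a change of more than 2-fold either way. Its spread was pooled over all stages, though, and so includes the scatter of the adult libraries given below. With E15 and P3 fitted alone the change was also 0.14, with an SE of 0.20 against 0.63 (limma, adjusted p = 0.656). In the adult Vcan was at 11.9 TPM in replicate 1, 1.64 TPM in replicate 2 and 6.82 TPM in replicate 3, all below the earlier stages. It fell by 3.09 after P3 (SE 0.57, limma, adjusted p = 0.00717) and by 2.94 in all since E15 (SE 0.57, adjusted p = 0.00437). The first of these calls did not hold without P3 replicate 1 (limma, adjusted p = 0.0510) or P3 replicate 3 (0.0578).

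Relative to its mean, Vcan had the widest spread of the 9 genes among the adult libraries (6.79 ± 5.14 TPM, SD, n = 3). Its adult values followed the order of the mature oligodendrocyte markers. The summed level of these markers was 736, 87.8 and 512 TPM in Adult replicates 1, 2 and 3. The microglia sum (444, 328 and 436 TPM) and the neuron sum (224, 76.4 and 182 TPM) had this order too. The other marker sums did not. With 3 libraries few orders are possible, so a shared order can arise by chance. The synaptic gene Snap25 had the same order, with 140, 34.5 and 127 TPM. Of the other neuron markers, Gad1, Nefl, Syt1 and Tubb3 also had this order, and the rest did not. Neurod6, for example, measured 0.655, 10.6 and 0.371 TPM. The part of these markers in the spread of Vcan was not tested. The change of Vcan after P3 was -2.44 without Adult replicate 2 (limma, adjusted p = 0.00289) and -3.59 without Adult replicate 1 (adjusted p = 0.00391), so it passed with and without the lowest library. Fewer cells of a type and less RNA per cell cannot be told apart in these bulk samples.

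The make-up of the lectican transcripts changed from stage to stage. Ncan made up 44.5% ± 0.502 (SD, n = 2) of the summed TPM of the 3 lecticans at E15, 76.0% ± 1.91 (n = 2) at P3 and 12.8% ± 1.49 (n = 3) in the adult. Bcan made up 18.5% ± 1.05, 13.6% ± 1.43 and 84.9% ± 3.03. Vcan made up 37.0% ± 1.56, 10.5% ± 0.488 and 2.30% ± 1.65. The summed level was 130.5 and 132 TPM (E15), 482 and 545 TPM (P3) and 279 to 307 TPM (adult). The largest share was thus Ncan at E15 and P3 and Bcan in the adult, in each library of those stages. These shares describe the libraries and were given no test of their own. The fourth lectican gene, Acan, encodes aggrecan, the main lectican of cartilage and of perineuronal nets, and reached at most 0.22 TPM in any library.

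**Figure D1:**
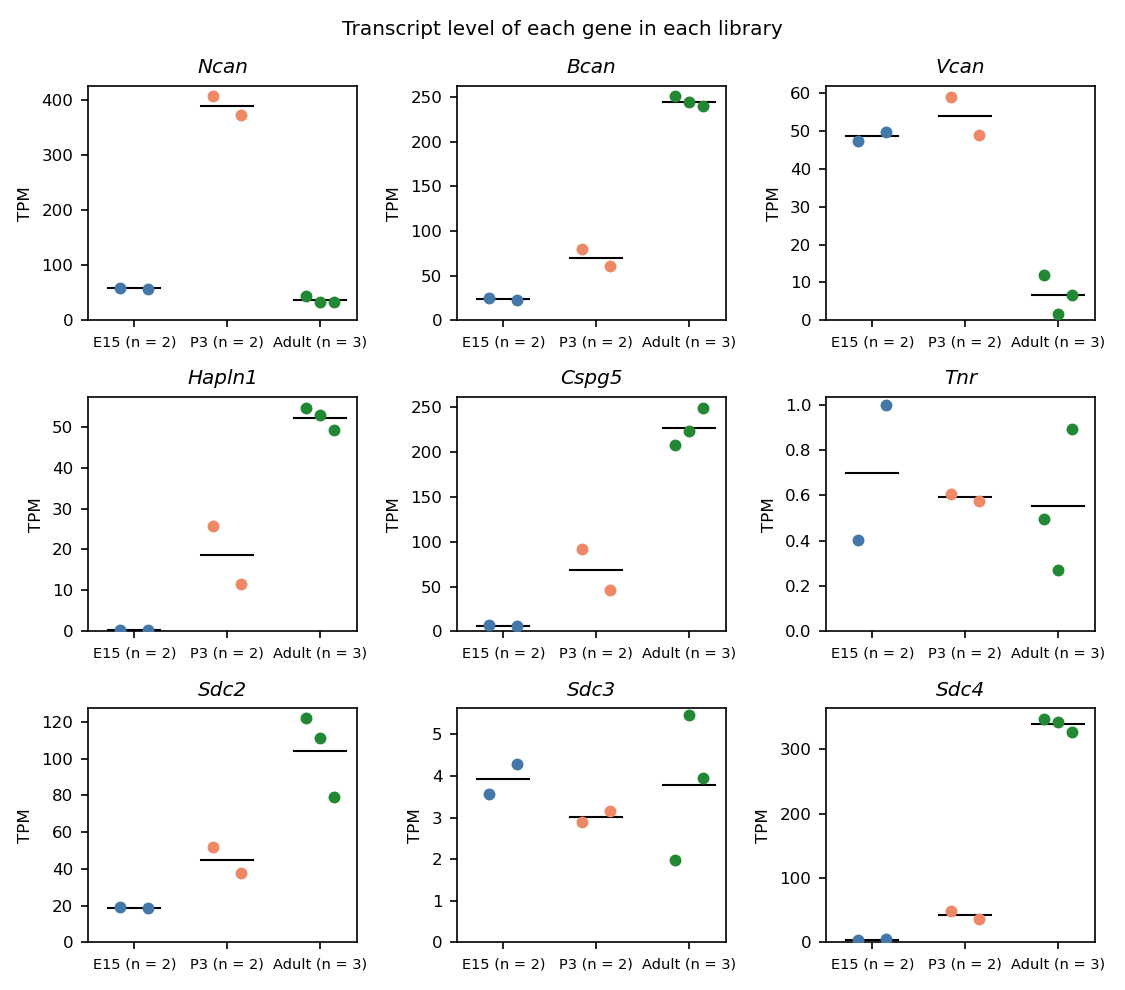
TPM of the 9 genes in each of the 7 libraries (points, coloured by stage), with the stage mean as a horizontal line. Each panel has its own linear axis from 0. Ncan peaked at P3, with 406 and 373 TPM, Vcan was lowest in the adult, and Bcan, Hapln1, Cspg5, Sdc2 and Sdc4 were higher at each later stage.

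Hapln1, the cartilage link protein gene that is also the main link gene of perineuronal nets, went from near 0 to a moderate level. It measured 0.277 and 0.439 TPM (E15), 25.7 and 11.7 TPM (P3) and 54.5, 52.9 and 49.1 TPM (adult). The stages did not overlap, and P3 replicate 1 had a much higher level than P3 replicate 3. Hapln1 rose by 3.76 from E15 to P3 (SE 0.38, limma, adjusted p = 0.00102) and by a further 1.53 after P3 (SE 0.35, adjusted p = 0.0162). The second step was not called without P3 replicate 3, where it was 0.99 (limma, adjusted p = 0.126), nor with both Adult replicates 1 and 3 removed (1.55, adjusted p = 0.0906). Over the whole span Hapln1 rose by 5.29 (SE 0.35, adjusted p = 2.40e-05). With E15 levels near 0 these sizes depend on the pseudocount. The step to P3 was 2.08 with a pseudocount of 5 and 5.27 with 0.1, and the whole span was 3.41 and 6.86, all still called.

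Each link gene lies next to a lectican gene in the mouse genome, with no other protein-coding gene starting between them in the RefSeq annotation of GRCm38.p6. Hapln1 is the neighbour of Vcan, Hapln2 of Bcan, Hapln3 of Acan and Hapln4 of Ncan. From P3 to the adult Hapln1 rose while its neighbour Vcan fell. The other pairs can be compared by level alone, since Acan and Hapln2 did not pass the filter and Hapln4 was called in no comparison. Hapln2, known from oligodendrocytes, stayed at or below 0.28 TPM in every library, whereas Bcan reached 251 TPM. Hapln4 stayed at or below 1.65 TPM while Ncan reached 406 TPM. Hapln3 measured 0.163 and 0.546 TPM (E15), 7.24 and 2.02 TPM (P3) and 7.51, 4.10 and 4.95 TPM (adult), with P3 and the adult overlapping. It rose by 2.25 between E15 and the adult (SE 0.49, limma, adjusted p = 0.00777), a call lost without E15 replicate 1 (0.0641) and with both Adult replicates 1 and 3 removed (0.0646). Hapln1 made up 89.3% ± 3.20 (SD, n = 3) of the summed TPM of the 4 link genes in the adult.

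Cspg5 encodes neuroglycan C, a membrane chondroitin sulfate proteoglycan with an EGF-like module. It measured 6.76 and 6.17 TPM (E15), 91.5 and 45.7 TPM (P3) and 208, 224 and 249 TPM (adult). The stages did not overlap. Cspg5 rose by 3.14 from E15 to P3 (SE 0.31, limma, adjusted p = 0.000916), by a further 1.79 after P3 (SE 0.28, adjusted p = 0.00361) and by 4.93 over the whole span (SE 0.28, adjusted p = 1.23e-05). Its mean was 35.1 times higher in the adult than at E15, and these calls held under every alternative tried.

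Tnr, the tenascin that cross-links lecticans in the mature matrix, was barely detected. It measured 0.403 and 0.997 TPM (E15), 0.605 and 0.577 TPM (P3) and 0.494, 0.271 and 0.893 TPM (adult), and the stages overlapped. It reached 1 TPM in no library and was not tested. The related tenascin gene Tnc, a matrix gene of radial glia and neural stem cell niches, had far higher levels. Tnc measured 50.2 and 40.3 TPM (E15), 187 and 109 TPM (P3) and 22.8, 30.6 and 20.7 TPM (adult), so that it had its highest level at P3, as Ncan did. It fell by 2.50 after P3 (SE 0.28, limma, adjusted p = 0.000966). Its rise of 1.65 from E15 to P3 (SE 0.31, adjusted p = 0.0182) was not called when E15 replicate 1 (0.0711), E15 replicate 2 (0.144) or P3 replicate 1 (0.173) was removed.

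Among the syndecans, Sdc4 had the largest rise. Sdc4, known for its place in focal adhesions, measured 4.03 and 4.63 TPM (E15), 49.5 and 36.1 TPM (P3) and 347, 343 and 326 TPM (adult). The stages were far apart, and the adult libraries differed little. Sdc4 rose by 3.03 from E15 to P3 (SE 0.22, limma, adjusted p = 0.000253) and by a further 2.97 after P3 (SE 0.20, adjusted p = 0.000146). The rise over the whole span was 5.99 (SE 0.20, adjusted p = 1.58e-06), or 78.2-fold between the stage means, against 146-fold for Hapln1 from its level near 0. Every Sdc4 call held under every alternative tried. By median rank within a library, Sdc4 moved from 10331 at E15 to 3315 at P3 and 472 in the adult among the 24978 genes.

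Sdc2, a syndecan of fibroblasts, endothelium and developing dendritic spines, rose more gently. It measured 19.2 and 18.8 TPM (E15), 52.1 and 37.9 TPM (P3) and 122, 111 and 78.9 TPM (adult), with no overlap between stages. Sdc2 rose by 2.37 over the whole span (SE 0.25, limma, adjusted p = 0.000203). The step from E15 to P3 was 1.19 (SE 0.27, adjusted p = 0.0389). It was not called without E15 replicate 1 (0.163), E15 replicate 2 (0.207), P3 replicate 1 (0.304) or Adult replicate 2 (0.0552), with no filter (0.0808) or without the variance trend (0.0831). The step from P3 to the adult was 1.18 (SE 0.25, limma, adjusted p = 0.0114), and 0.96 without P3 replicate 3 (adjusted p = 0.104).

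Sdc3, the syndecan best known from neurons and axons, stayed low. It measured 3.56 and 4.29 TPM (E15), 2.90 and 3.15 TPM (P3) and 1.98, 5.46 and 3.95 TPM (adult). The adult libraries spanned those of both earlier stages. No comparison passed (limma, adjusted p = 0.733, 0.791 and 0.858). The log2 difference of adult minus E15 was -0.11, with a 95% confidence interval from -1.04 to 0.83. A change of up to about 2-fold was thus not excluded. Sdc1, the fourth syndecan gene, known from epithelia and plasma cells, measured 5.22 and 7.73 TPM (E15), 0.857 and 4.65 TPM (P3) and 0.453 TPM in Adult replicate 1, and it was listed at 0 in both other adult libraries. It fell by 2.70 between E15 and the adult (SE 0.51, limma, adjusted p = 0.00399).

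The syndecan make-up moved from Sdc2 to Sdc4. Sdc2 made up 56.5% ± 4.90 (SD, n = 2) of the summed syndecan TPM at E15, 47.9% ± 2.20 (n = 2) at P3 and 23.2% ± 3.45 (n = 3) in the adult. Sdc4 made up 12.8% ± 0.339, 45.6% ± 2.02 and 76.0% ± 3.31. Sdc1 and Sdc3 together with these fill the rest, and Sdc3 went from 11.6% ± 0.686 at E15 to 0.858% ± 0.396 in the adult. The summed level was 32.0 and 35.5 TPM (E15), 81.9 and 105 TPM (P3) and 409 to 472 TPM (adult).

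**Figure D2:**
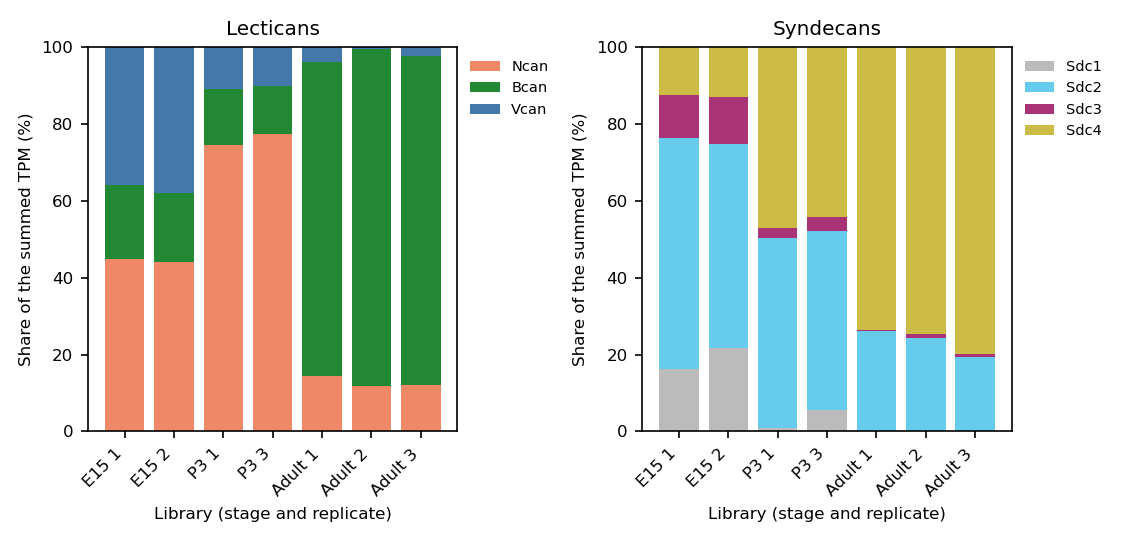
Share (%) of each gene in the summed TPM of the lecticans Ncan, Bcan and Vcan (left) and of the 4 syndecans (right), 1 bar per library. Ncan fills 74.6% and 77.3% of the lectican bars at P3 and Bcan 81.6% to 87.6% in the adult, and Sdc4 fills 73.5% to 79.7% of the syndecan bars in the adult.

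In all, 6 of the 9 genes rose from E15 to P3 and 0 fell (limma), while Vcan and Sdc3 did not pass and Tnr was not tested. At an unadjusted p under 0.05 the counts were also 6 and 0, where 3757 of the 15931 tested genes passed in either direction. Over all tested genes 5.56% rose and 1.08% fell in that comparison. From P3 to the adult 5 of the 9 rose (Bcan, Hapln1, Cspg5, Sdc2 and Sdc4) and 2 fell (Ncan and Vcan), against 8.39% and 13.8% of all tested genes. Fewer of these rose and fell without P3 replicate 3, and fewer fell without P3 replicate 1, as among all tested genes. From E15 to the adult 5 rose and 2 fell, against 15.4% and 24.7% of all tested genes. Without Adult replicate 2 or Adult replicate 3, 1 fell, when 3730 and 3558 of all tested genes fell, against 3930. Fewer of the 9 also fell without E15 replicate 1 or E15 replicate 2, as among all tested genes. The median log2 change of the 8 tested genes was 2.09, 1.36 and 2.83 in the 3 comparisons. The comparisons share libraries and are not independent.

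**Figure D3:**
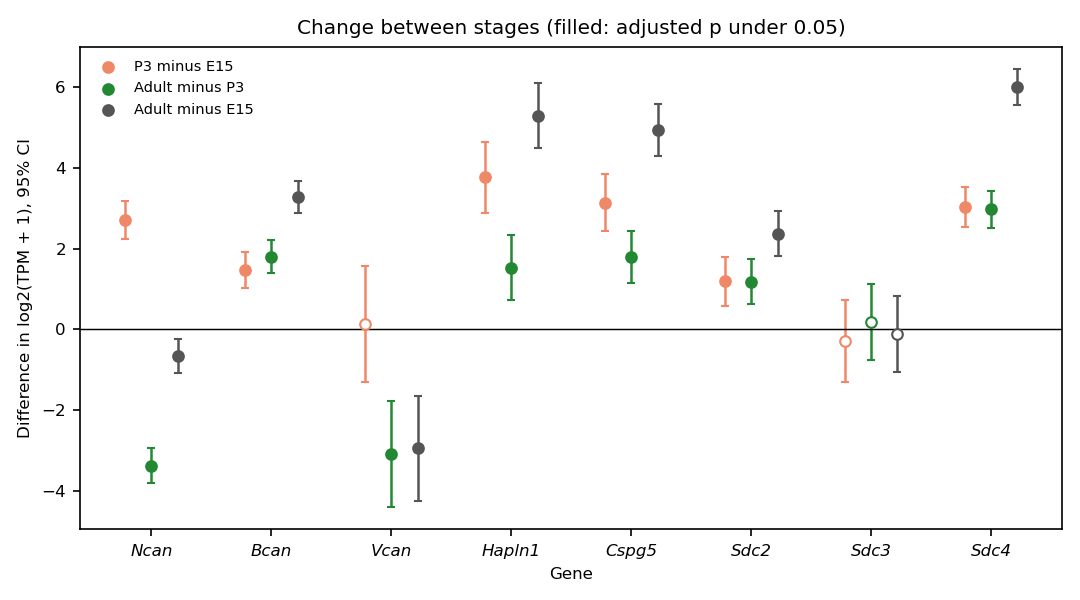
Difference in log2(TPM + 1) between stages for the 8 tested genes, with 95% confidence intervals from limma. Filled points passed an adjusted p under 0.05. Ncan is the gene with a rise (2.71) followed by a fall (-3.37), and Sdc4 reaches 5.99 for the adult against E15.

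The order of levels within a stage changed as well. At E15 the order of means was Ncan, Vcan, Bcan, Sdc2, Cspg5, Sdc4, Sdc3, Tnr and Hapln1, from 58.4 to 0.358 TPM. Neighbours in this order did not overlap in their libraries, except Sdc4 with Sdc3 and Tnr with Hapln1. At P3 Ncan stood apart with a mean of 390 TPM (SD 23.8, n = 2). Bcan, Cspg5, Vcan, Sdc2 and Sdc4 followed with means from 70.0 down to 42.8 TPM, and each of these overlapped with its neighbour. In the adult the order was Sdc4 (338 TPM), Bcan (245 TPM), Cspg5 (227 TPM), Sdc2 (104 TPM), Hapln1 (52.2 TPM), Ncan (37.1 TPM), Vcan (6.79 TPM), Sdc3 (3.79 TPM) and Tnr (0.552 TPM). Here Bcan overlapped with Cspg5 and Vcan with Sdc3, and the other neighbours did not overlap.

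The P3 libraries differed from each other in a shared direction. The level in P3 replicate 3 was lower than in replicate 1 for each of the 6 genes that rose, by a log2 difference of -1.08 for Hapln1, -0.99 for Cspg5, -0.45 for Sdc2, -0.44 for Sdc4, -0.38 for Bcan and -0.12 for Ncan. Of the genes that did not rise, Vcan was also lower there (-0.27), Tnr hardly differed (-0.03) and Sdc3 was slightly higher (0.09). Summed astrocyte markers were lower in P3 replicate 3 too, at 4405 against 6931 TPM, and summed neuron markers were higher, at 579.5 against 94.1 TPM. Their part in the difference was not tested.

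For each tested gene, the genes with the most similar course over the 7 libraries were found by the Euclidean distance between log2(TPM + 1) values centred on each gene's mean. This measure compares the size and shape of the change on that scale and not the level. As the scale compresses changes near 0 TPM, a gene with low levels can lie close to one with a different fold change. Closest to Sdc4 were the sodium pump subunit gene Atp1b2 (distance 0.53), the histamine methyltransferase gene Hnmt (0.56) and the adhesion gene Lsamp (0.56). Closest to Bcan were Plcd4 (0.28), Ttyh1 (0.29) and Gstk1 (0.35), and closest to Cspg5 were Cpe (0.40), Nkain4 (0.43) and Scrg1 (0.44). Hapln1 was nearest to Ass1 (0.46), the bicarbonate transporter gene Slc4a4 (0.58) and Pcdhgc4 (0.61), and Sdc2 to Fut8 (0.30), Dirc2 (0.33) and the adhesion gene Nrcam (0.41). For Ncan the nearest were the pericyte gene Higd1b (0.77), Spaca9 (0.85) and Smim5 (0.87), whose P3 means of 7.52, 7.87 and 10.2 TPM were far below the 390 TPM of Ncan. Vcan had the least close matches, Prelid2 (1.12), B3galnt1 (1.17) and Hist1h2bj (1.18).

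Beyond the 9 genes, 124 other genes of proteoglycan and hyaluronan biology were listed, 119 were in the table and 93 passed the filter. From E15 to the adult 23 of them (24.7%) rose and 21 (22.6%) fell, against 15.4% and 24.7% of all tested genes, with a median of -0.13 against -0.30 over all tested genes. From E15 to P3, 13 (14.0%) rose and 0 fell (limma, median 0.12 against -0.15), against 5.56% and 1.08% of all tested genes. From P3 to the adult, 10 (10.8%) rose and 15 (16.1%) fell (median -0.09 against -0.13), against 8.39% and 13.8%. At an unadjusted p under 0.05, 23 and 8 of them were higher and lower at P3 than at E15. Over all tested genes, 3757 of 15931 passed that threshold in either direction. Of the listed genes, fewer rose when E15 replicate 1, E15 replicate 2 or P3 replicate 1 was removed, as among all tested genes. More of them fell without P3 replicate 3, again as among all tested genes, and 1 fell without Adult replicate 1. From P3 to the adult fewer rose and fewer fell without P3 replicate 3. Fewer also rose with Adult replicates 1 and 3 left out together. Both drops were seen among all tested genes too. From E15 to the adult fewer fell without E15 replicate 1 or E15 replicate 2, as among all tested genes.

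Other core proteins moved both ways between E15 and the adult, where 15.4% of all tested genes rose and 24.7% fell. Of 6 glypicans, the lipid-anchored heparan sulfate proteoglycans, 1 (16.7%) rose and 4 (66.7%) fell. Fewer fell without E15 replicate 1, as among all tested genes. Gpc5 measured 0.773 and 0.543 TPM (E15), 11.2 and 4.30 TPM (P3) and 152, 124 and 109 TPM (adult), a rise of 6.28 (SE 0.37, limma, adjusted p = 1.52e-05) that is close in size to that of Sdc4. Gpc2, a glypican of developing axons, fell by 2.97 (SE 0.48, adjusted p = 0.00175). A list of 15 further proteoglycan genes held 11 that were tested, of which 5 (45.5%) rose and 1 (9.09%) fell. This fall was not called without E15 replicate 1 or 2. Ptprz1, the receptor phosphatase whose secreted form is phosphacan, went from 38.8 ± 5.20 TPM (SD, n = 2) at E15 to 359 ± 115 TPM (n = 2) at P3 and 473 ± 63.1 TPM (n = 3) in the adult, a rise of 3.57 (SE 0.22, limma, adjusted p = 1.80e-05). Srgn, the proteoglycan of blood cell granules, rose by 3.92 (SE 0.58, limma, adjusted p = 0.0012). It measured 23.5, 61.5 and 14.7 TPM in Adult replicates 1, 2 and 3. The microglia marker sum given above was also highest in the adult, at 444, 328 and 436 TPM in these libraries, and its part was not tested.

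Among 10 tested genes that make, cut or bind hyaluronan, 1 (10%) was called higher and 4 (40%) lower in the adult than at E15. Over all tested genes the shares were 15.4% and 24.7%. The gene called higher was the hyaluronan receptor gene Cd44, with a rise of 2.23 (SE 0.39, limma, adjusted p = 0.00259). Has2, a hyaluronan synthase gene, measured 1.37 and 2.50 TPM (E15), 10.4 and 6.46 TPM (P3) and 0.415, 0.579 and 0.156 TPM (adult). It fell by 2.75 after P3 (SE 0.39, limma, adjusted p = 0.00227), and its change of 1.68 from E15 to P3 did not pass (adjusted p = 0.0540), though it did under median-of-ratios scaling (0.0435). Between E15 and the adult Has2 was not called (-1.07, limma, adjusted p = 0.05585). It was called there with a pseudocount of 0.1 (0.0386) and without the variance trend (0.0324, both limma). Hmmr, a hyaluronan-binding protein of the mitotic spindle, fell by 3.15 between E15 and the adult (SE 0.45, limma, adjusted p = 0.000982).

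For the enzymes that build the sugar chains, the counts from E15 to the adult stand against 15.4% that rose and 24.7% that fell among all tested genes. Of 9 genes for the linker that joins chain and core, 2 (22.2%) rose and 1 (11.1%) fell. Fewer rose without E15 replicate 1, as among all tested genes, and 2 fell without Adult replicate 1. Xylt1, the xylosyltransferase that starts the chain, rose by 2.81 (SE 0.34, limma, adjusted p = 0.000449), and the xylose phosphatase gene Pxylp1 fell by 4.19 (SE 0.42, adjusted p = 0.000177). Of 13 tested genes for chondroitin sulfate chains, 2 (15.4%) rose and 3 (23.1%) fell. Fewer rose without E15 replicate 1, and fewer rose and fell without E15 replicate 2, as among all tested genes. Csgalnact1, which adds the first chondroitin sugar, went from 1.04 ± 0.0494 TPM (SD, n = 2) to 31.0 ± 2.69 TPM (n = 3), a rise of 3.97 (SE 0.29, adjusted p = 3.96e-05). The sulfotransferase gene Chst15 fell by 2.28 (SE 0.44, adjusted p = 0.00404). Of 16 tested genes for heparan sulfate chains, 2 (12.5%) rose and 3 (18.8%) fell. Fewer rose without E15 replicate 2 or with both Adult replicates 1 and 3 removed, as among all tested genes. In the latter fit more of this list fell, while fewer of all tested genes did. The sulfotransferase gene Hs3st1 fell from 115 ± 17.7 TPM (n = 2) to 2.25 ± 1.94 TPM (n = 3), a change of -5.37 (SE 0.62, limma, adjusted p = 0.000336).

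Of 12 tested genes for proteoglycan-cleaving proteases or for protease inhibitors, 4 (33.3%) rose from E15 to the adult and 0 fell (limma). The 4 were the inhibitor genes Timp2, Timp3 and Timp4 and the protease gene Adamts20. This stands against 15.4% that rose and 24.7% that fell among all tested genes. At an unadjusted p under 0.05, 2 of the 12 were lower, where 7781 of the 15931 tested genes passed in either direction. The metalloprotease inhibitor gene Timp4 went from 2.88 ± 1.02 TPM (SD, n = 2) at E15 to 65.9 ± 29.0 TPM (n = 2) at P3 and 224 ± 21.9 TPM (n = 3) in the adult, a rise of 5.88 (SE 0.30, limma, adjusted p = 7.15e-06). Timp3 rose by 3.57 (SE 0.25, adjusted p = 3.26e-05). Of 13 tested ligands and receptors, 6 (46.2%) rose and 3 (23.1%) fell. Fewer fell without E15 replicate 1, without E15 replicate 2 or with both Adult replicates 1 and 3 removed, as among all tested genes. Fgfr3, a receptor of heparan sulfate-bound growth factors, rose by 4.31 (SE 0.22, limma, adjusted p = 7.15e-06), and the integrin subunit gene Itgav rose by 3.35 (SE 0.28, adjusted p = 6.83e-05). Ptn encodes pleiotrophin, a ligand of chondroitin sulfate chains and of the Ptprz1 product. It was highest at P3, at 4102 and 2595 TPM, against 768 and 718 TPM at E15 and 1554 to 1745 TPM in the adult. Ptn rose by 2.13 from E15 to P3 (SE 0.20, limma, adjusted p = 0.000704) and fell by 0.97 after P3 (SE 0.18, adjusted p = 0.00727).

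**Figure D4:**
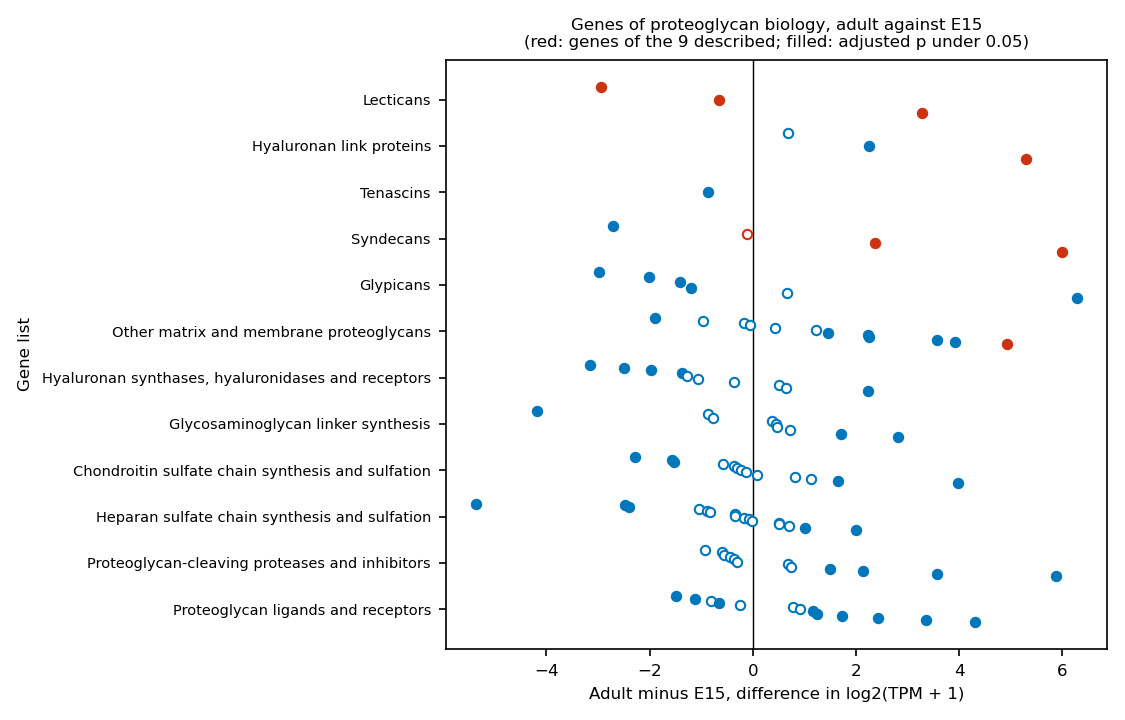
Difference in log2(TPM + 1) of the adult minus E15 for each tested gene of 12 lists of proteoglycan and hyaluronan biology, 1 point per gene, with genes of the 9 described in red. Filled points passed an adjusted p under 0.05. Sdc4 (5.99), Gpc5 (6.28) and Timp4 (5.88) lie farthest to the right and Hs3st1 (-5.37) farthest to the left.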

How the data were processed

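TPM values were deposited by the authors in 1 table with a column for each of 7 libraries. The submitters' processing notes name bcl2fastq and Bowtie as tools and mm9 as build. The sources used here do not give the program or annotation behind the values. TPM holds no read numbers, so no count model was run and depth is unknown. Columns were matched to samples by title and grouped by stage. Values became log2(TPM + 1), genes that did not reach 1 TPM in 2 libraries were dropped, and stage was fitted over all 7 libraries in limma 3.58.1 (R 4.3.3, lmFit, eBayes with trend, 4 residual degrees of freedom, prior 4.27) with Benjamini-Hochberg adjustment over all tested genes. The test was checked on simulated data.

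The members, gene lists and rules were chosen with earlier results of these data known. Named beside the members were up to 4 genes of each list with the largest called change, or up to 2 by level where none was called. Chst13, Hs6st3, Mmp9 and 2 further names did not match the table by symbol. Single markers (such as Fabp7, Pdgfra, Sox10 and Snap25) and neighbouring link genes were named after their values were seen. Gene-level values cannot separate splice forms of Bcan or Vcan. Alternatives were pseudocounts of 0.1 and 5, no filter, a minimum mean of 5 TPM, quantile normalization, median-of-ratios scaling, no variance trend, a replicate block, fits on the compared stages alone, summed rows of a symbol and each library left out in turn. Leaving out Adult replicates 1 and 3 together was added after seeing the data.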

Additional observations from a re-analysis of the deposited data

How the results depend on the processing

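Of 429 repeated values of the 8 tested genes under the alternatives, 403 kept their direction and side of the threshold, 19 lost the threshold and 7 changed sign. All 3 calls of Bcan, Cspg5 and Sdc4 held throughout, as did the rise of Ncan to P3 and its fall after it. The sign changes were all in values that did not pass. They were -0.32 for Vcan from E15 to P3 with the replicate block, -0.068 for Sdc3 from P3 to the adult without Adult replicate 2 (range -0.068 to 0.49 with 1 library left out), and for Sdc3 from E15 to the adult 0.13 with median-of-ratios scaling, 0.0038 with quantile normalization, 0.00067 without E15 replicate 2, 0.20 without Adult replicate 1 (range -0.36 to 0.20) and 0.39 with both Adult replicates 1 and 3 removed. The number of the 9 genes that fell from E15 to the adult was 1 with the replicate block, quantile normalization, median-of-ratios scaling or limma without the trend, against 2. Leaving out 1 library at a time gave 5 to 6 genes that rose between E15 and P3. It gave 3 to 5 that rose and 1 to 2 that fell from P3 to the adult, and 5 that rose and 1 to 2 that fell from E15 to the adult.

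Over all genes, 1057, 3530 and 6387 were called in the 3 comparisons. With the replicate block 616 were called between E15 and P3, and 2288 after P3 with Adult replicates 1 and 3 left out together. Leaving out 1 library gave 267 to 1126, 1144 to 3322 and 3620 to 6149 calls. Same-numbered libraries showed little shared deviation over all genes (correlations across genes of -0.0232 to 0.0207). At E15 and at P3 the deviations of the libraries of a stage mirror each other, so few of these correlations are independent. They therefore cannot decide whether the numbers pair the samples. E15 and P3 share replicate number 1 alone. Fits that leave a stage with 1 library assume that it varies like the others. Adding Acan moved no lectican share by more than its SD, and no syndecan gene had a second row. Rows at 0 made up 19% to 21.2% of the E15 and P3 libraries and 26.5% to 31.4% of the adult ones, and whether lower depth limits adult levels such as that of Tnr was not tested.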
